A study of Mus musculus with 9 samples.

Results

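The glutathione peroxidases are a family of 8 mouse genes, Gpx1 to Gpx8, described here in epididymal fat of mice transgenic for Tm5NM1 and of wild-type mice. Its members were taken as every probe that carries one of these symbols in the platform annotation. This gave 15 probes of 45281 on the array, and 8 genes of 19057 named genes. In the 5 tg/tg mice the transgene was Tm5NM1, a tropomyosin isoform of the actin cytoskeleton, and the 4 wt/wt mice had none. The mice of both genotypes were of the FVB/N strain, were 3 months old and had fasted for 14 to 16 h before RNA was taken from the epididymal fat pad. Neither the promoter driving the transgene nor the number of founder lines is stated in the labels. Each array stands for 1 mouse. Transgenic mice are called 165, 152, 147, 163 and 164 and wild-type mice 141, 142, 143 and 159, as in the labels.

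Glutathione peroxidases use glutathione to reduce hydrogen peroxide and lipid hydroperoxides to water and alcohols. In the mouse, Gpx1, Gpx2, Gpx3 and Gpx4 carry selenocysteine in the active site, whereas Gpx5, Gpx6, Gpx7 and Gpx8 carry cysteine there. Gpx5 is a secreted enzyme of the epididymal epithelium, made under the control of androgens and taken up by maturing sperm, and it is not known as a product of fat cells. Gpx3, the secreted plasma enzyme, is made in kidney and also in adipose tissue.

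Signals were background-corrected, quantile-normalized and expressed on the log2 scale. A probe was called detected on an array where its deposited detection p was under 0.05, and was tested if detected on at least 4 of the 9 arrays. Of the 15 family probes, 14 were tested among 23354 tested probes, and 10 of these were detected on all 9 arrays. Between 22239 and 23313 probes were detected per array. The median signal before normalization was 142 to 147 in wild-type mice 142, 143 and 159 and 169 to 192 in the other mice, so this brightness cannot be told apart from genotype for these 3 wild-type mice. Pairs of arrays correlated with r from 0.903 to 0.990 over the tested probes. With 5 and 4 arrays, the precision of each comparison is limited by their number.

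Gpx5 was the member that separated the mice. It was not detected in transgenic mice 165, 163 and 164, and gave a strong signal in transgenic mice 152 and 147 and in all 4 wild-type mice. The fat-expressed members stayed within 1.41 on the log2 scale over all 9 mice. At none of the 14 tested probes did the genotypes differ past the threshold (limma with Benjamini-Hochberg adjustment over all tested probes, threshold 0.05), against 0.0685% of all tested probes, or 16 probes, all of them lower in transgenic mice. At an unadjusted p under 0.05 limma gave 3 of the 14, against 9.45% of all tested probes. All 3 were Gpx5 probes, which read 1 gene. Each was detected in 2 of 5 transgenic and 4 of 4 wild-type mice. The detection filter thus favours a lower transgenic mean for them, also in the counts and median below. The genotypes overlapped at all 14 probes, and did not overlap at 3.21% of all tested probes. Transgenic means were lower at 10 and higher at 4 of the 14 probes, with a median log2 fold change of -0.21, against 0.05 over all tested probes. Probes of the same gene are not independent, and the lower ones include every probe of Gpx5 and of Gpx8. By gene, at the leading probe, 5 means were lower and 3 higher.

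**Figure D1:**
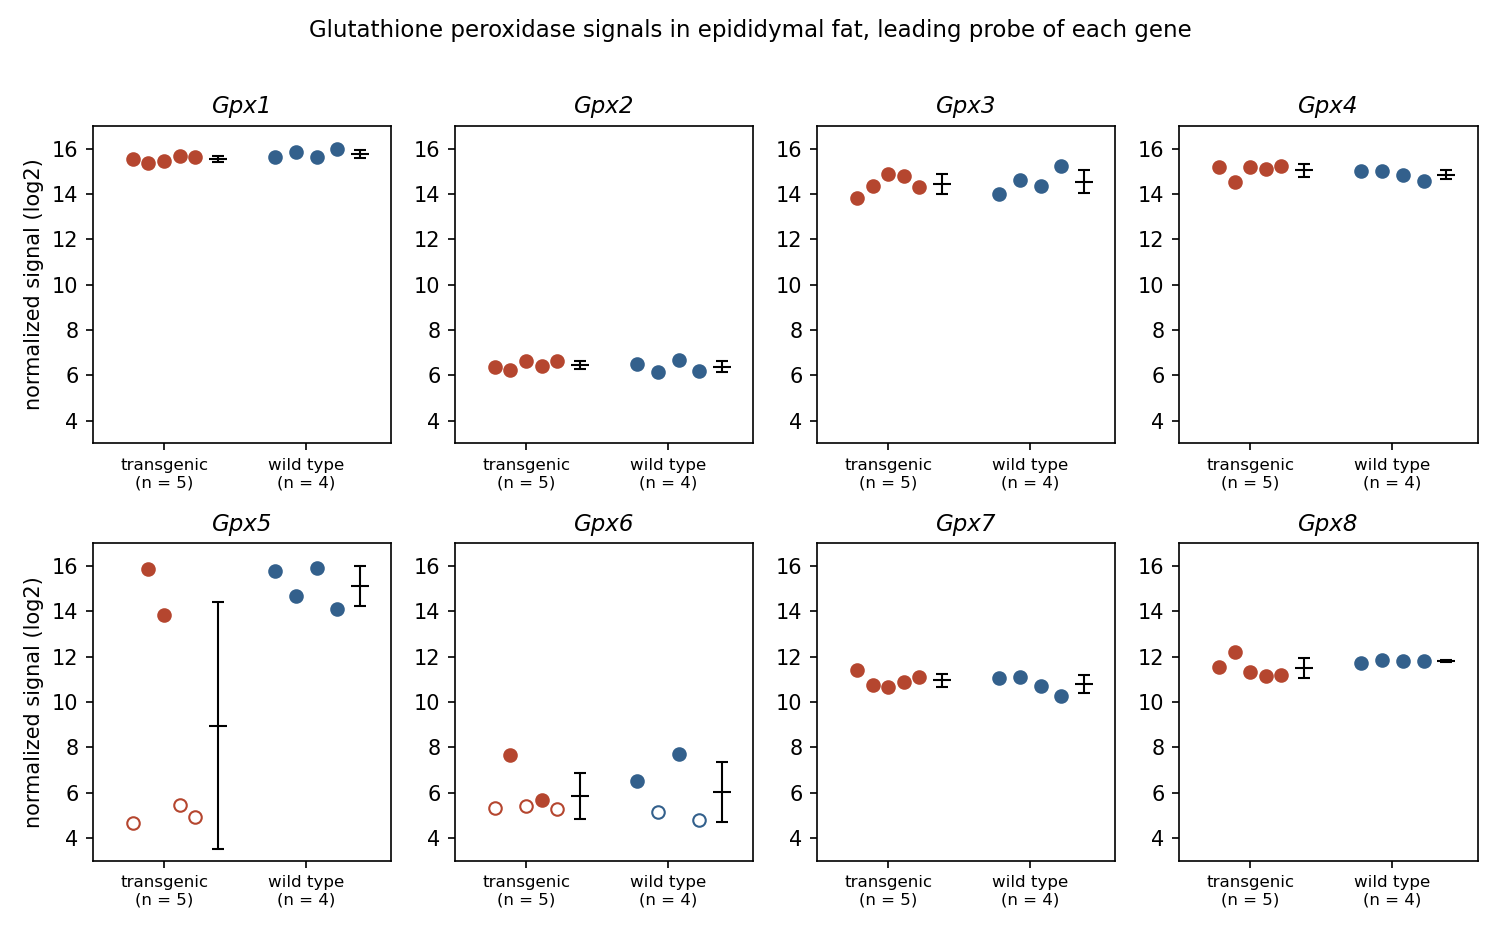
Normalized signal (log2) of the leading probe of each of the 8 genes, 1 point per mouse, transgenic left (n = 5) and wild type right (n = 4). Open points were not detected above background, and bars give the mean and SD. Gpx5 read 13.81 to 15.89 in 6 mice and at most 5.45 in the other 3, all transgenic.

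The leading Gpx5 probe, ILMN_2638087, read 4.67 (mouse 165), 15.88 (152), 13.81 (147), 5.45 (163) and 4.92 (164) in transgenic fat. In wild-type fat it read 15.78 (141), 14.66 (142), 15.89 (143) and 14.08 (159). Transgenic mouse 152 thus lay within the wild-type range and mouse 147 just under it, while the remaining transgenic mice gave no detected signal, with readings of at most 5.45 that are background. The transgenic mean was 8.95 ± 5.44 (SD, n = 5) and the wild-type mean 15.10 ± 0.88 (SD, n = 4). The log2 fold change of -6.16 (95% confidence interval -11.34 to -0.97) did not pass (limma unadjusted p = 0.0245, adjusted p = 0.473). The undetected mice were also set at the lowest signal detected on their arrays. Gpx5 was then at least 55.0-fold lower in transgenic mice by mean log2 values, a value that averages over mice with and without the signal. The same bound was 23.9 for the Gpx5 probe ILMN_2902162 and 36.4 for ILMN_2902167. It concerns the detection floor only, and the confidence interval at ILMN_2638087 allows a transgenic to wild-type ratio of up to 0.51. In whole tissue, fewer cells of a type and less RNA per cell cannot be told apart.

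The other Gpx5 probes gave the same pattern over mice. ILMN_2902162 read 5.15, 14.36, 12.14, 5.44 and 4.99 in transgenic mice 165, 152, 147, 163 and 164, against 13.89, 12.31, 13.94 and 12.88 in wild-type mice 141, 142, 143 and 159. ILMN_2902167 read 4.90, 15.38, 12.38, 5.02 and 4.82 in the transgenic mice, against 15.19, 12.85, 15.57 and 12.86 in the wild-type mice, in the same order of mice. All 3 probes were detected in the same 6 mice, and within these 6 mice pairs of probes correlated with r from 0.913 to 0.975. The log2 fold changes were -4.84 for ILMN_2902162 (95% confidence interval -9.12 to -0.56, adjusted p = 0.489) and -5.62 for ILMN_2902167 (-10.51 to -0.73, adjusted p = 0.486; limma). Each of the 3 probes was highest in transgenic mouse 152 and wild-type mice 141 and 143. Mice 147, 142 and 159 were lower at each probe.

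Over the 9 mice the leading Gpx5 probe covered 11.22 on the log2 scale, against a median range of 0.97 over the tested probes. Its low end is background in mice where it was not detected and its high end lies near the top of the scale, so the figure is no exact size of change. Gpx6, not detected in 5 of the 9 mice, covered 2.92. The members detected in every mouse covered 1.41 (Gpx3), 1.12 (Gpx7), 1.10 (Gpx8), 0.72 (Gpx4), 0.62 (Gpx1) and 0.51 (Gpx2) at their leading probes. The last 3 of these ranges were under the median range of the tested probes. Gpx1 lay near the top of the scale and Gpx2 at low signal, which can narrow their ranges.

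**Figure D2:**
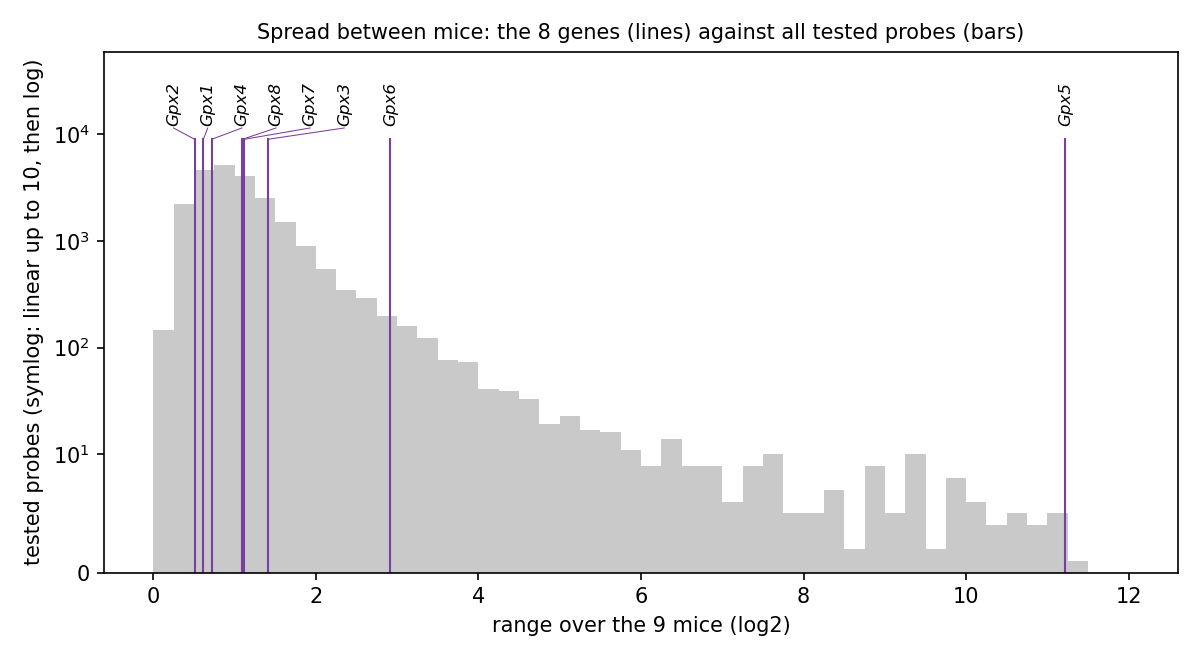
Range over the 9 mice (log2, horizontal axis) of the 23354 tested probes as bars (vertical axis, number of probes, linear up to 10 and logarithmic above) with the leading probe of each of the 8 genes as a line. Gpx5 stands at 11.22 and Gpx6 at 2.92, both with undetected readings at their low end, and the other members between 0.51 and 1.41.

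Gpx6 is encoded next to Gpx5 on mouse chromosome 13, with no protein-coding gene between them in the RefSeq table (GRCm38.p6), and is known from olfactory tissue. To show the start regions of these neighbours and of the fat-expressed member Gpx3, the 250 bases before the RefSeq start of each are given 5′ to 3′ on the gene's strand. Capitals mark matches, on either strand, to the hexamer AGAACA bound by the androgen and glucocorticoid receptors, to the PEA3 (ETS factor) element AGGAAG and to the CCAAT box CCAAT.
Gpx5 (chr13:21292687-21292936, minus strand): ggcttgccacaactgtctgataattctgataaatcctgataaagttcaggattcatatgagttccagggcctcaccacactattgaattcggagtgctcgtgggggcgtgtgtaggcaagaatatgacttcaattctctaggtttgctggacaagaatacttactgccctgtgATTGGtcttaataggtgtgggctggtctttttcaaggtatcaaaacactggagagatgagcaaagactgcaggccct
Gpx6 (chr13:21311953-21312202, plus strand): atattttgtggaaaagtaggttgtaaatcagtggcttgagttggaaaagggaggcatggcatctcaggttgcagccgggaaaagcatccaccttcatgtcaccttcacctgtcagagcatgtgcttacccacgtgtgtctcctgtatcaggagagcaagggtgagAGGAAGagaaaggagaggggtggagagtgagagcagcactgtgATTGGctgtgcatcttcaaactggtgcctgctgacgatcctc
Gpx3 (chr11:54902604-54902853, plus strand): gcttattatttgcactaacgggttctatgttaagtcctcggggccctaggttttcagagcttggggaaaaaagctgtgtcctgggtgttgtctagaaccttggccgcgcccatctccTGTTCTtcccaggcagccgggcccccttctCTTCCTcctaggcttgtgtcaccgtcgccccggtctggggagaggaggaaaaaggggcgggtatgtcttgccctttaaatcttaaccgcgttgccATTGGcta

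In these windows Gpx3 held 1 match to AGAACA, a hexamer found in 16.1% of 32817 RefSeq windows of the same length, and Gpx5 and Gpx6 held none. AGGAAG, found in 29.5% of windows, was matched in Gpx6 and Gpx3. CCAAT, found in 33.8%, was matched in all 3, at position -77 from the start in Gpx5, -42 in Gpx6 and -8 in Gpx3. The longest run shared by the Gpx5 and Gpx6 windows on the printed strand was CTGTGATTGG, which covers the CCAAT match of both and was found in 0.369% of windows. It was looked for after the windows had been read. The share is that of this run alone, and how often other pairs of windows share a run as long was not counted. The TATA box TATAAA (12.4% of windows) and the antioxidant response core TGACNNNGC (10.2%) were matched in none of the family's windows, and the GC box GGGCGG (32.7%) was matched in Gpx3, Gpx4 and Gpx7.

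Gpx6 gave a weak signal in a few mice of both genotypes. Its brighter probe, ILMN_2792028, read 5.30 (165), 7.65 (152), 5.41 (147), 5.66 (163) and 5.29 (164) in transgenic mice, against 6.49 (141), 5.14 (142), 7.70 (143) and 4.78 (159) in wild-type mice. It was detected in transgenic mice 152 and 163 and in wild-type mice 141 and 143, so its 3 highest readings came from the mice with the highest Gpx5. The log2 fold change was -0.17, with a 95% confidence interval of -1.63 to 1.30 (limma adjusted p = 0.956). The dimmer probe, ILMN_2769507, was detected only in transgenic mouse 152, at 5.62, and was not tested.

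The mean of epididymal markers was lowest in the mice without detected Gpx5. Of 17 epididymal marker genes listed without Gpx5, 14 were tested. Several of them passed the filter mainly through wild-type mice, which fixes the direction of their difference, so no count or median over the list is given. The lipocalins Lcn9 and Lcn10 passed the test as lower (limma over all probes), and they are such genes: Lcn9 was detected in 0 of 5 transgenic and 4 of 4 wild-type mice, and Lcn10 in 1 of 5 and 4 of 4. The mean of the 14 genes was 5.16 (165), 11.84 (152), 8.10 (147), 5.23 (163) and 5.26 (164) in transgenic mice and 12.09 (141), 9.85 (142), 13.72 (143) and 11.36 (159) in wild-type mice. The 3 mice without detected Gpx5 thus had the 3 lowest marker means, at most 5.26, against 8.10 or more in the other mice. Not every marker was undetected there. Cst11 and Defb15 were detected in 5 of 5 transgenic mice, and Adam7 and Lcn12 in 4 of 5. Defb15 was detected in 3 of 4 wild-type mice and differed by -0.04 (limma adjusted p = 0.997). Lcn5 (limma adjusted p = 0.749) and Lcn8 (adjusted p = 0.0595) did not pass and were each detected in 2 of 5 transgenic mice, 152 and 147, and in 4 of 4 wild-type mice. No marker with a probe was undetected on every array. Of 7 sperm genes 4 were tested, and Prm1 was detected in 3 of 5 transgenic and 2 of 4 wild-type mice (limma adjusted p = 0.969). The part of epididymal RNA in the Gpx5 difference was not tested.

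Since the marker mean left 3 mice apart, no correlation of a member with it over all 9 mice is given. Over the 6 mice above the gap, a choice made after the data were seen, Gpx5 gave r = 0.81 with the marker mean (exact permutation p = 0.0458, 0.367 after adjustment over 8 genes). Its rho was 0.89 (exact permutation p = 0.0333, 0.267 after adjustment). For Gpx6, r was 0.69 (exact permutation p = 0.133, 0.449 after adjustment) and rho 0.71 (exact permutation p = 0.136, 0.363 after adjustment). Gpx8 gave r = 0.58 and rho = 0.26, Gpx4 r = -0.54 and rho = -0.54, and Gpx3 r = -0.52 and rho = -0.77, with exact permutation p between 0.103 and 0.658 and adjusted p of at least 0.363. For Gpx1, Gpx2 and Gpx7, r lay between -0.03 and 0.08. None of the 8 relations passed adjustment, and leaving out another 2 mice would leave too few for r.

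**Figure D3:**
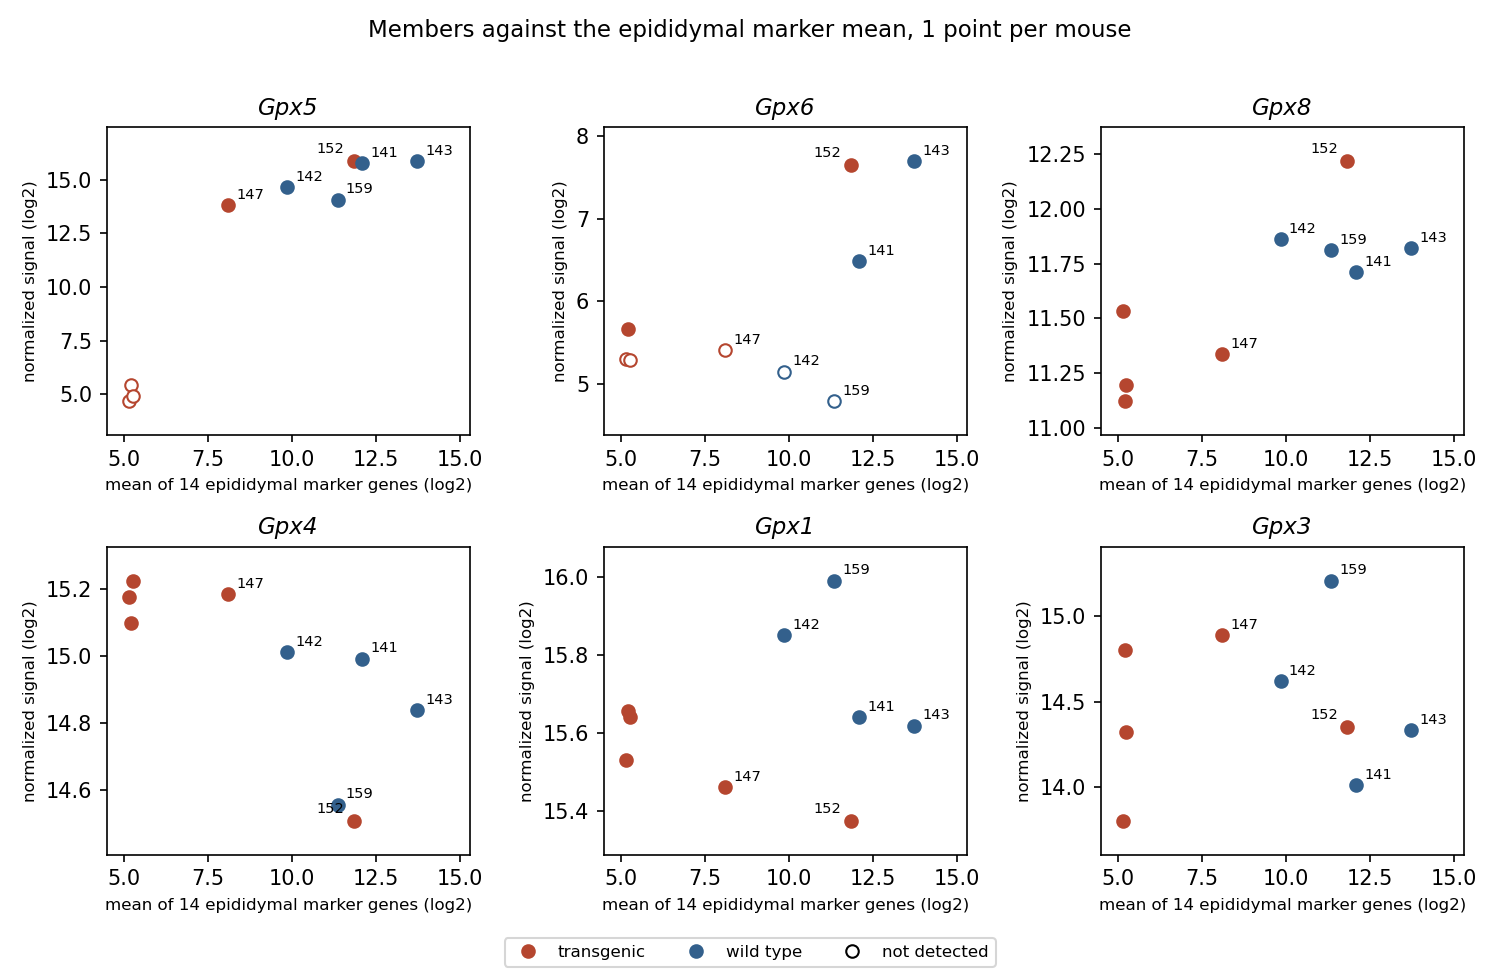
Leading probe of 6 members (log2, vertical axis, scales differ) against the mean of 14 epididymal marker genes (log2, horizontal axis), 1 point per mouse, transgenic in red and wild type in blue, open where not detected. Unlabelled points at the left are transgenic mice 165, 163 and 164, at 5.16 to 5.26 on the horizontal axis, in which Gpx5 was not detected.

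The 10 named genes most like Gpx5 by Pearson's r over the 9 mice, among 12163 genes, were Spag11b, Defb20, Adam7, Defb45, Defb18, Crisp4, Lcn6, Clpsl2, Defb42 and Defb21. Spag11b is a sperm-associated antigen with beta-defensin sequence, the Defb genes encode beta-defensins and Adam7 a metalloprotease. This order includes the 3 mice in which Gpx5 was not detected, which stand apart, so its r values are not given. Over the remaining 6 mice r was 0.988 for Spag11b, 0.928 for Defb20 and 0.825 for Adam7, with 0.605 for Defb21 the lowest of the 10. Spag11b, Adam7 and Crisp4 also stand in the epididymal marker list. The values share arrays and come from a search over many genes, and are a description.

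Among the selenium-dependent members, Gpx1, the cytosolic enzyme, read 15.53 (165), 15.37 (152), 15.46 (147), 15.66 (163) and 15.64 (164) in transgenic mice. In wild-type mice it read 15.64 (141), 15.85 (142), 15.62 (143) and 15.99 (159). Transgenic mice 163 and 164 lay within the wild-type range and the other 3 below it, and the log2 fold change was -0.24 (95% confidence interval -0.54 to 0.05, limma adjusted p = 0.600). Scaling to the 75th percentile in place of quantile normalization gave -0.43 (adjusted p = 0.489). Gpx1 signals before normalization were 46904 to 56986 in transgenic and 43704 to 59168 in wild-type mice, where the brightest probe of any array read 63684 to 69992.

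Gpx3, the secreted plasma enzyme, read 13.80 (165), 14.35 (152), 14.89 (147), 14.80 (163) and 14.32 (164) in transgenic mice and 14.01 (141), 14.62 (142), 14.33 (143) and 15.21 (159) in wild-type mice. Both genotypes covered most of the same range. The difference was -0.11 (95% confidence interval -0.74 to 0.52, limma adjusted p = 0.928), and the interval allows folds from 0.599 to 1.43. With array weights in the fit the difference was 0.28.

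Gpx4 reduces phospholipid hydroperoxides within membranes and protects cells from ferroptosis. Its leading probe, ILMN_2684855, read 15.18 (165), 14.51 (152), 15.19 (147), 15.10 (163) and 15.23 (164) in transgenic mice, against 14.99 (141), 15.01 (142), 14.84 (143) and 14.56 (159) in wild-type mice. 4 of the 5 transgenic mice lay above every wild-type mouse and mouse 152 below every one. The difference was 0.19 (95% confidence interval -0.21 to 0.59, limma adjusted p = 0.782). Leaving out transgenic mouse 152 gave 0.32 (adjusted p = 0.309), and leaving out wild-type mouse 159 gave 0.09 (adjusted p = 0.920). Scaling to the 75th percentile gave 0.06 (adjusted p = 0.959) and no normalization between arrays 0.48 (adjusted p = 0.0633). In that last setting the median of all probes was itself 0.34, and Gpx4 lay 0.14 above it. The next probe, ILMN_3100812, followed it over the 9 mice with r = 0.934 and differed by 0.15 (adjusted p = 0.872). The dim probe ILMN_3027761, near 7 on the log2 scale, followed it less closely, with r = 0.517, and differed by -0.01 (adjusted p = 0.996).

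Gpx2, the enzyme of the gut epithelium, was detected on all 9 arrays at low signal, from 6.22 to 6.64 in transgenic and from 6.15 to 6.66 in wild-type mice. The difference was 0.08 (95% confidence interval -0.27 to 0.43, limma adjusted p = 0.907). These ranges nearly coincided.

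Gpx7 and Gpx8 lie in the endoplasmic reticulum, where they use the peroxide left by disulfide formation. Gpx7 read 11.39 (165), 10.76 (152), 10.67 (147), 10.86 (163) and 11.08 (164) in transgenic mice and 11.07 (141), 11.10 (142), 10.71 (143) and 10.28 (159) in wild-type mice, a difference of 0.16 (95% confidence interval -0.31 to 0.64, limma adjusted p = 0.847). The genotypes overlapped widely. Gpx8 at its leading probe, ILMN_2653166, read 11.53 (165), 12.22 (152), 11.34 (147), 11.12 (163) and 11.20 (164) in transgenic mice, against 11.71 (141), 11.86 (142), 11.82 (143) and 11.81 (159) in wild-type mice.

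At this probe and at ILMN_2625855, transgenic mouse 152 was above every wild-type mouse and the other 4 transgenic mice were below every one. At ILMN_2625854 transgenic mouse 165 read 11.02, above wild-type mouse 159 and above wild-type mouse 141, which read 10.98. The transgenic mean was 11.48 ± 0.44 (SD, n = 5) and the wild-type mean 11.80 ± 0.06 (SD, n = 4), a difference of -0.32 (95% confidence interval -0.80 to 0.16, limma adjusted p = 0.668). Without transgenic mouse 152 it was -0.51 (adjusted p = 0.125). ILMN_2625855 differed by -0.40 (adjusted p = 0.634) and ILMN_2625854 by -0.29 (adjusted p = 0.767), and the 3 Gpx8 probes correlated over the 9 mice with r from 0.937 to 0.962. The epididymal marker mean was also high in mouse 152, at 11.84, and its part in the Gpx8 signal was not tested.

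**Figure D4:**
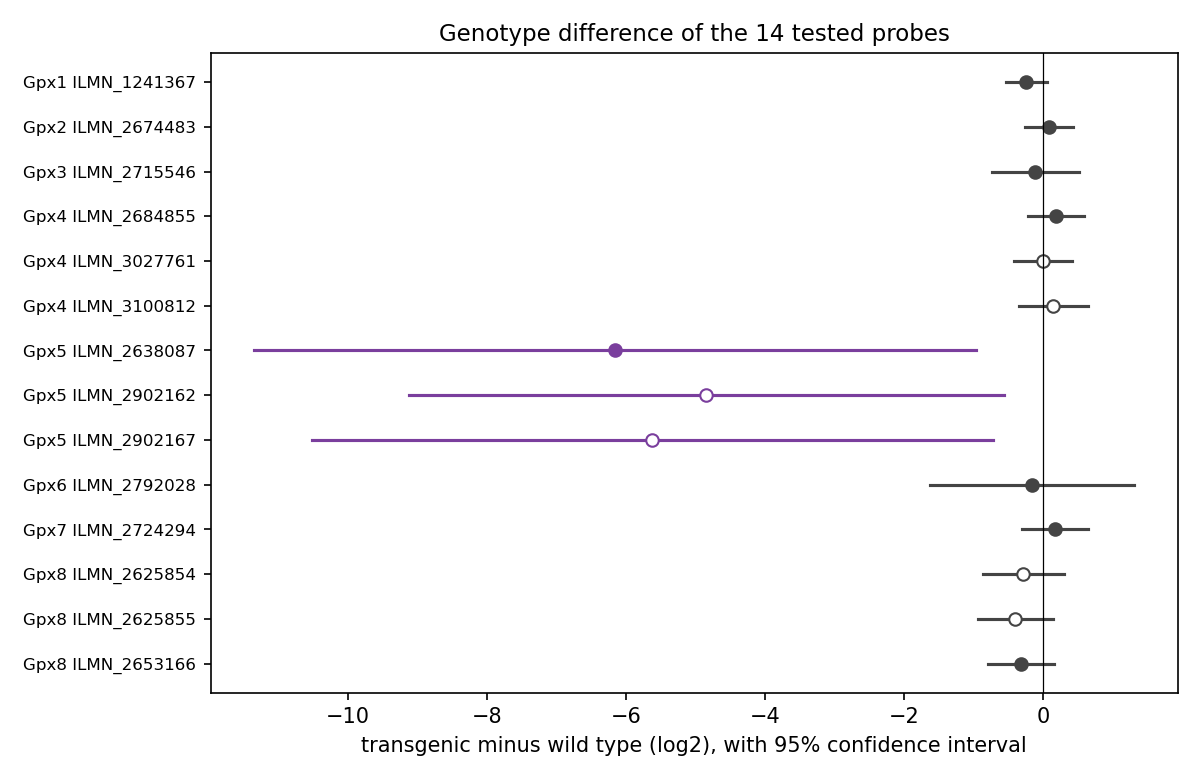
Log2 fold change, transgenic minus wild type, with its 95% confidence interval (horizontal axis), of the 14 tested probes, filled for the leading probe of each gene. The Gpx5 intervals, in purple, reach from -11.34 to -0.56, and the intervals of all other probes hold 0. The Gpx5 probes passed the detection filter mainly through wild-type mice, which favours a lower transgenic mean for them.

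Whether Gpx5 differed between genotypes by more than the fat-expressed members was tested on the difference of their signals within each mouse. The 6 fat-expressed members, those with a probe detected on all 9 arrays, were Gpx1, Gpx2, Gpx3, Gpx4, Gpx7 and Gpx8. The genotype difference of Gpx5 exceeded theirs by -5.84 (Gpx8) to -6.34 (Gpx4) on the log2 scale. With Gpx3, Gpx5 minus Gpx3 was -5.49 ± 5.30 (SD, n = 5) in transgenic and 0.56 ± 1.36 (SD, n = 4) in wild-type mice, and 3 of 5 transgenic mice lay below every wild-type mouse. Exact permutation over all splits of the mice gave two-sided p from 0.0873 to 0.119 for the 6 pairs, and 0.114 to 0.119 adjusted over them, where the smallest possible p was 0.00794. None of the 6 passed.

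Each fat-expressed member had other named genes that followed it over the 9 mice. By Pearson's r among 12163 genes, Gpx3 was most like Patl1 (0.975), Trim25 (0.954) and Eif4a2 (0.947), and Gpx4 most like Rgs4 (0.984), Vsir (0.978) and Aldh3b1 (0.978). Gpx1 was most like Ccdc174 (0.961), Ubxn7 (0.957) and Abcg1 (0.957), and Gpx2 most like Psmc5 (0.921), Abhd1 (0.920) and Rpgrip1 (0.903). Gpx7 was most like Plgrkt (0.980), Krcc1 (0.966) and Elmod3 (0.955), and Gpx8 most like Btg3 (0.977), Nfe2l3 (0.947) and Lrrc41 (0.944). None of these genes was among the 10 named for Gpx5. Lists this short from 12163 genes would seldom overlap in any case, so this does not set the members apart from Gpx5. Rpgrip1 was detected on 5 and Btg3 on 7 of the 9 arrays. All are the top values of a search over many genes with 9 arrays, and are a description.

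The enzymes around the glutathione peroxidases were taken from 6 lists, and no gene of any list passed over all probes. Counts at an unadjusted p under 0.05 (limma) stand against 9.45% of all tested probes. For the synthesis and breakdown of glutathione, 12 of 14 genes were tested, and 4 had an unadjusted p under 0.05 by limma. Slc7a11, Cth and 1 other, all among these 4, were detected mainly in wild-type mice. The filter thus favours a lower transgenic mean for them, so no count by direction and no median is given. The cystine importer Slc7a11, which feeds glutathione synthesis, read 4.80 (165), 6.40 (152), 4.79 (147), 4.68 (163) and 5.25 (164) in transgenic mice, against 8.11 (141), 5.48 (142), 9.02 (143) and 10.03 (159) in wild-type mice. It was detected in transgenic mouse 152 and in wild-type mice 141, 143 and 159, and the difference of -2.97 did not pass (limma adjusted p = 0.334). Cth, which makes cysteine, differed by -1.12 (adjusted p = 0.390) and was detected in 2 of 5 transgenic and 4 of 4 wild-type mice.

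For glutathione reduction and NADPH supply, 6 of 10 genes were tested, 5 with higher and 1 with lower transgenic means (median 0.21), and 1 had an unadjusted p under 0.05. The mitochondrial dehydrogenase Idh2 differed by 0.36 (limma adjusted p = 0.504) and the glutaredoxin Glrx2 by 0.31 (adjusted p = 0.537), with the other Glrx2 probes in the opposite direction. Of 23 glutathione S-transferases, 20 were tested, 12 with higher and 8 with lower means (median 0.15), 2 of them at an unadjusted p under 0.05. Gsto2 differed by 0.40 (adjusted p = 0.499) and Gstm4 by 0.38 (adjusted p = 0.517). Of 16 other peroxide and superoxide enzymes, 14 were tested, 8 with higher and 6 with lower means (median 0.16), none at an unadjusted p under 0.05. The peroxiredoxin Prdx2 differed by 0.27 (adjusted p = 0.566) and thioredoxin, Txn1, by 0.34 (adjusted p = 0.606), each with another probe in the opposite direction.

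Because Gpx1 to Gpx4 need selenocysteine, genes listed for selenoprotein synthesis were set beside them, not all of which insert it. Of 11 listed genes, 10 were tested, 7 with lower and 3 with higher transgenic means (median -0.13), and 1 had an unadjusted p under 0.05. Celf1, which binds RNA, differed by -0.36 (limma adjusted p = 0.443) and Trnau1ap, which binds the selenocysteine tRNA, by -0.26 (adjusted p = 0.575). Of 16 other selenoproteins, 13 were tested, 8 with lower and 5 with higher means (median -0.02), none at an unadjusted p under 0.05. Selenos, of the endoplasmic reticulum, differed by -0.20 (adjusted p = 0.625) and Selenow by 0.25 (adjusted p = 0.711).

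The tissue label was checked against markers of fat and of other cells. Adipocyte genes were present, 11 of 12 listed being tested, and their mean was 12.50 to 13.27 in transgenic and 12.45 to 13.10 in wild-type mice. Of these 11 genes, 7 were higher and 4 lower in transgenic mice. The differences ran from -0.32 for Pnpla2 (limma adjusted p = 0.638) to 1.27 for Fabp4 (adjusted p = 0.369). The droplet coat gene Plin1 differed by 0.11 (adjusted p = 0.927). Adiponectin, Adipoq, read 15.80 to 16.01 in all 9 mice, at the top of the scale, where a difference cannot be read. Mesothelial genes were lower at all 8 tested of 9, with a mean of 7.82 to 9.58 in transgenic and 9.52 to 10.36 in wild-type mice. Upk3b differed by -1.59 (adjusted p = 0.620) and Upk1b by -2.46 (adjusted p = 0.418). Macrophage genes were higher at 5 and lower at 2 of 7 tested (Adgre1 0.41, adjusted p = 0.674), with Itgam undetected on every array. Of 5 red blood cell genes, set beside Gpx1 because red cells are rich in it, 3 were tested. Hba-a1 was at the top of the scale in all 9 mice (15.79 to 16.01), so it cannot show whether red cell content differed. Alas2, below the top of the scale, read 11.22 ± 0.86 (SD) in transgenic and 11.21 ± 0.42 (SD) in wild-type mice. Its difference was 0.008 (limma adjusted p = 0.998). Slc4a1 differed by 0.39 (adjusted p = 0.828) and was detected in 4 of 5 transgenic and 4 of 4 wild-type mice. Stromal genes were higher at 4 and lower at 3 of 7 (Pdgfra -0.38, adjusted p = 0.504), with Dcn at the top of the scale in all 9 mice (15.73 to 15.95). Endothelial genes were higher at all 6 tested of 7 (Pecam1 0.12, adjusted p = 0.922, and Cdh5 0.42, adjusted p = 0.615), with Kdr undetected on every array. Apart from Lcn9 and Lcn10 none of these markers passed. An unadjusted p under 0.05 (limma) was met by 2 of 7 stromal, 1 of 11 adipocyte, 1 of 6 endothelial and 1 of 8 mesothelial genes. The share over all tested probes was 9.45%. It was met by 0 of the sperm, macrophage and red blood cell genes. Epididymal genes are not counted here because of the detection filter. The part of these markers in the values of the family was not tested.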

How the data were processed

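RNA of epididymal fat from 9 mice was hybridised to Illumina bead arrays after labelling with the Ambion MessageAmp kit, per the labels' protocols, with RNA integrity scores above 7.8. The deposited intensity values of the series matrix were used, with the deposited detection p-value of each probe from the other table, whose p-values are Illumina's per the file headers. No source names the scanner software or a normalization step. The intensities of that other table, called non-normalized, did not follow its own detection p-values on 8 of 9 arrays (12137 to 12861 places at which p rose with the signal, against at most 1 for the series matrix) and served as an alternative.

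Values were processed with neqc in limma 3.58.1 (R 4.3.3), with an offset of 16, quantile normalization and log2. lmFit and eBayes, two-sided, compared the genotypes at probes detected on at least 4 arrays. Of these steps only the fit was tested on simulated data, drawn from normalized signals of the tested probes. Background correction, normalization and the detection filter were not tested in this way. Of 45281 probes, 1 gene symbol was given for 34885 and several for 18, and 10378 stay unnamed. RefSeq held the Entrez identifier of 34807 named probes. A gene stands for its tested probe with the highest mean. Named were every family probe and, in each pathway list, the 2 genes with the lowest unadjusted p. In each marker list the first 2 genes (where tested) and any detected on no array were named, and every tested red blood cell gene. Further epididymal and adipocyte markers were named for their detection or difference after the data were seen. The 10 (Gpx5) or 3 (other members) genes with the highest r were also named. Members and lists were chosen with earlier results of these data known. Promoters are RefSeq's (GRCm38.p6), and protein and probe sequences were not used here. Correlations of members with the epididymal marker mean over 9 mice had been planned and are not given, nor are their alternatives, because the marker mean fell into separate clusters.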

Additional observations from a re-analysis of the deposited data

Results flagged for a closer look

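In 3 of the 30 groups of readings examined, a mouse stood apart from the others of its genotype by Dixon's criterion, which chance alone meets in about 1 group in 20, and all 3 readings came from transgenic mouse 152. At the leading Gpx4 probe, mouse 152 read 14.51, the lowest, where the other transgenic mice read 15.10 to 15.23. At the Gpx6 probe ILMN_2792028 it read 7.65, the highest, where the others read 5.29 to 5.66. At the Gpx6 probe ILMN_2769507 it read 5.62, again the highest, where the others read 4.54 to 4.69. The same mouse had the highest Gpx5 and epididymal marker mean of its genotype, and whether these readings are linked was not tested.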

How the results depend on the processing

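No family probe passed the threshold in any of the 18 alternatives run. The differences between Gpx5 and a fat-expressed member were run in 14 of them, and none passed. Without transgenic mouse 152 the exact permutation p could not fall under 0.0286. The pairs with Gpx2, Gpx4 and Gpx7 reached that limit there (0.0571 after adjustment). The Gpx5 difference kept its sign, from -7.89 (without transgenic mouse 152, adjusted p = 0.0975) to -4.71 (no normalization between arrays, adjusted p = 0.0684), and could not be computed among probes detected on all 9 arrays. With a mouse left out it ranged from -7.89 to -5.08. Some small differences changed sign, and the cause was not tested. Without normalization between arrays, where the median of all probes was itself 0.34, Gpx3 differed by 0.19, the dim Gpx4 probe by 0.28, Gpx6 by 0.18, and Gpx8 by 0.10 (ILMN_2625854) and 0.046 (ILMN_2653166), all below that median. With array weights Gpx3 differed by 0.28, the dim Gpx4 probe by 0.13 and Gpx7 by -0.048, and with the table called non-normalized the dim Gpx4 probe by 0.0038. With a mouse left out, Gpx3 ranged from -0.29 to 0.11, the dim Gpx4 probe from -0.10 to 0.15 and Gpx7 from -0.0059 to 0.27. Over all probes, 0 were called higher and 16 lower, against 4850 and 60 without normalization between arrays, 170 and 183 with array weights, 0 and 9 with no filter on dim probes, and 0 and 1 among probes detected on all 9 arrays. Without transgenic mouse 152 the counts were 10 and 40, without transgenic mouse 147, 163 or 164 0 and 9, without wild-type mouse 141 1 and 4, without wild-type mouse 143 0 and 4, and without wild-type mouse 159 1 and 7. No paired analysis was possible because the genotypes share no replicate numbers. Low signal limits Gpx2 and Gpx6, and signal near the top of the scale limits Gpx1 and Gpx5 and the markers Adipoq, Hba-a1 and Dcn.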
